A study of Mus musculus with 59 samples.

Results

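The nuclear genes for oxidative phosphorylation were read in liver, bone marrow and spleen of B6C3F1 mice given baclofen or its vehicle. The genes were chosen by name: every array probe set with exactly 1 annotated symbol beginning with Ndufa, Ndufb, Ndufc, Ndufs, Ndufv, Uqcr or Atp5, or with Cox followed by 4, 5, 6, 7 or 8, together with Sdha, Sdhb, Sdhc and Sdhd. The rule found 179 of the 45101 probe sets on the array, which stand for 90 of 18193 genes. Of these genes, 6 encode core subunits of complex I and 28 its accessory subunits, 4 encode complex II and 8 complex III. A further 10 encode the subunits of complex IV found in most tissues, 8 encode its tissue-restricted isoforms or related proteins, 5 encode the catalytic F1 part of ATP synthase and 12 its stalk and membrane parts. The name rule also takes in 8 Ndufaf genes, which encode assembly factors of complex I and not subunits, and Cox7a2l, which encodes a factor that joins complexes III and IV.

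Baclofen activates the GABA-B receptor and is used as a muscle relaxant. Mice received 1 or 5 daily doses of baclofen or of 0.5% methylcellulose alone, and tissues were taken 2 h after the last dose. The labels give neither the dose of baclofen nor the age or sex of the mice, and tie no arrays of different tissues to 1 mouse. The 59 arrays comprise, for liver, 4 baclofen and 3 vehicle arrays at 1 day and 8 baclofen and 4 vehicle arrays at 5 days. The marrow of the right humerus and the spleen each had 4 baclofen and 4 vehicle arrays at 1 day and 8 baclofen and 4 vehicle arrays at 5 days. The number of arrays limits the precision, since an array intensity has no count behind it.

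Oxidative phosphorylation is the set of reactions of the inner mitochondrial membrane in which electrons from NADH and succinate are passed through complexes I to IV to oxygen, while protons are pumped out and return through ATP synthase. Hepatocytes hold many mitochondria and use the ATP for synthesis and gluconeogenesis. Red cell precursors need mitochondria for heme and lose them as they mature, while mature neutrophils hold few. Most subunits are encoded in the nucleus, and the factors NRF1, GABPA, YY1 and Sp1 are known to act at the promoters of many of them.

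The promoters of member genes whose values are described below are shown to let a reader see these sequence features. They run from 250 bases before to 50 bases after the RefSeq transcription start (build GRCm38.p6), and capitals mark a match to 1 of 4 motifs searched on both strands. The motifs were GCGCA and GCGC with any base between them for NRF1, CCGGAAG for GABPA and other ETS factors, AAGATGGC for YY1 and GGGCGG for Sp1. The 3 genes shown first, for complex I factors and a complex I subunit, hold the NRF1 motif, and Ndufaf4 also holds 2 overlapping Sp1 motifs. Atp5j2, for a membrane subunit of ATP synthase, holds the YY1 motif just after its start, and Cox6b2, for a complex IV isoform, holds an Sp1 motif. Ndufb2, for an accessory subunit of complex I, holds none of these letter strings in this window.
Ndufaf4 (chr4:24897833-24898132, plus strand): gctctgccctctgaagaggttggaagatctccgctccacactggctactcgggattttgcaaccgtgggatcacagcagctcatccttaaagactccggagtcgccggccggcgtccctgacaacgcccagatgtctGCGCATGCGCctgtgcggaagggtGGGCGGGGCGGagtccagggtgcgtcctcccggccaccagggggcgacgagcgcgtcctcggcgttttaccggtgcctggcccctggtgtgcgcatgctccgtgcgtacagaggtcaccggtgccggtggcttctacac
Ndufaf5 (chr2:140170396-140170695, plus strand): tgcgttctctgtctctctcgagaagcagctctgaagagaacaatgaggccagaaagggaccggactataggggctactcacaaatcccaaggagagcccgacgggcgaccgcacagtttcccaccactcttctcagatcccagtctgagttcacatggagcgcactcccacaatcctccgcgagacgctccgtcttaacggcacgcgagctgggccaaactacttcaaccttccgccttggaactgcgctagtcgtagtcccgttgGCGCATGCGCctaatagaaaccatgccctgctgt
Ndufs5 (chr4:123718137-123718436, minus strand): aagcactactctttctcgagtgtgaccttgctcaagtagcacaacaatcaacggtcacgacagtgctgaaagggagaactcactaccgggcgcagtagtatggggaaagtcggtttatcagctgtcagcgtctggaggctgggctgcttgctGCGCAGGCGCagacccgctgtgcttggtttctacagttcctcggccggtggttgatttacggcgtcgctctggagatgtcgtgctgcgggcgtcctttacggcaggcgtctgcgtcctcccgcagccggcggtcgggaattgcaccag
Atp5j2 (chr5:145191492-145191791, minus strand): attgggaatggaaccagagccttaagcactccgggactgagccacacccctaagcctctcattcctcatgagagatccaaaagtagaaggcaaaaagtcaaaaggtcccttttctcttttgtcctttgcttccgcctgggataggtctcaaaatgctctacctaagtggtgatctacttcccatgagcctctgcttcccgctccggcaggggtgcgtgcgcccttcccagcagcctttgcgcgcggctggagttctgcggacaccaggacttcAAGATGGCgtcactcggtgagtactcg
Cox6b2 (chr7:4753045-4753344, minus strand): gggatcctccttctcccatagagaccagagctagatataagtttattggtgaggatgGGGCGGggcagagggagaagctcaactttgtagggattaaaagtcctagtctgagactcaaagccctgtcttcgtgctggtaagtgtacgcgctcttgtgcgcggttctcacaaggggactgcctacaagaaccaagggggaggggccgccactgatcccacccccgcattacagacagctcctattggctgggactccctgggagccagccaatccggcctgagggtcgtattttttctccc
Ndufb2 (chr6:39592315-39592614, plus strand): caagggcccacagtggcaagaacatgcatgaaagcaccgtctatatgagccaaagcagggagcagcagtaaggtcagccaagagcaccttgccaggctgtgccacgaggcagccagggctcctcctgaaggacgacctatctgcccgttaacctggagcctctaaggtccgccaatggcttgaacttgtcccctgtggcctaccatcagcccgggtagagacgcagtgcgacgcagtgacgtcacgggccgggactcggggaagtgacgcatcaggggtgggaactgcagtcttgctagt

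RefSeq promoters were matched for 74 of the 90 member genes. The NRF1 motif stood in 17 of these 74 (23%), against 5.19% of the 27025 genes with a promoter in the same table. The ETS motif stood in 25.7% of the member genes, against 9.93% of all genes, and the YY1 motif in 13.5%, against 3.19%. The Sp1 motif stood in 47.3%, against 38.2%. At least 1 of the 4 was found in 56 of the 74 (75.7%), against 44.3% of all genes. These are matches of letters and not measured binding. The genes compared were not limited to those on the array, nor matched to the members for brightness or promoter base content. Whether the excess is particular to the members was thus not tested.

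The marker genes fixed for each tissue matched the labels: the mean of 11 hepatocyte genes lay between 14.45 and 14.65 (log2 intensity) in the 19 liver arrays and between 4.90 and 6.22 in 17 of the 20 spleen arrays. It was higher in the spleen libraries of vehicle 5 day replicate 3 (9.83), baclofen 5 day replicate 5 (9.62) and vehicle 5 day replicate 1 (7.29), which thus hold hepatocyte transcripts. The mean of 14 skeletal muscle genes was 9.67 in the bone marrow library of baclofen 1 day replicate 3, and between 6.59 and 7.87 in the other 19. Several counts of members called are given with and without these 4 libraries. Other values, such as differences of single genes, are with all libraries unless stated. The source field of 5 of the 7 one-day livers names the other treatment than the title and treatment field, which were followed here. The deposited intensities of the 3 tissues appear to have been normalized apart, so no test compares a gene's level between tissues.

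The member genes were bright and steady in all 3 tissues. Of the 90, 84 were bright enough to be tested in liver and 85 in bone marrow and spleen. Cox4i2, Cox7a1, Cox7b2 and Cox8b, tissue-restricted isoforms of complex IV, and the accessory subunit gene Ndufb4 fell below the filter in every tissue, and Cox6b2 did so in liver. Within groups, the SD of a tested member had a median of 0.07 (log2) in liver, against 0.13 for all 10916 genes tested there. It was 0.08 in bone marrow, against 0.12, and in spleen 0.10, against 0.14. The steadiest members were Atp5g3 in liver (SD 0.04), Cox4i1 in bone marrow (0.03) and Uqcrb in spleen (0.05). Cox6b2 had the widest spread, with an SD of 0.50 in spleen.

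Differences between baclofen and vehicle were small for nearly all members, as the plot of differences by complex shows. In liver at 5 days the median difference over the 84 members was 0.06 (log2), and in spleen the medians over 85 members were -0.13 at 1 day and -0.10 at 5 days. The 95% interval of the difference lay within 0.5 (1.41-fold) of 0 for 83 of 84 members in liver at 1 day and 82 at 5 days. In bone marrow it did so for 85 of 85 on both days, and in spleen for 76 of 85 at 1 day and 82 at 5 days. Over all genes tested, which were not matched to the members for brightness, the shares ran from 71.8% to 88.5%.

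**Figure D1:**
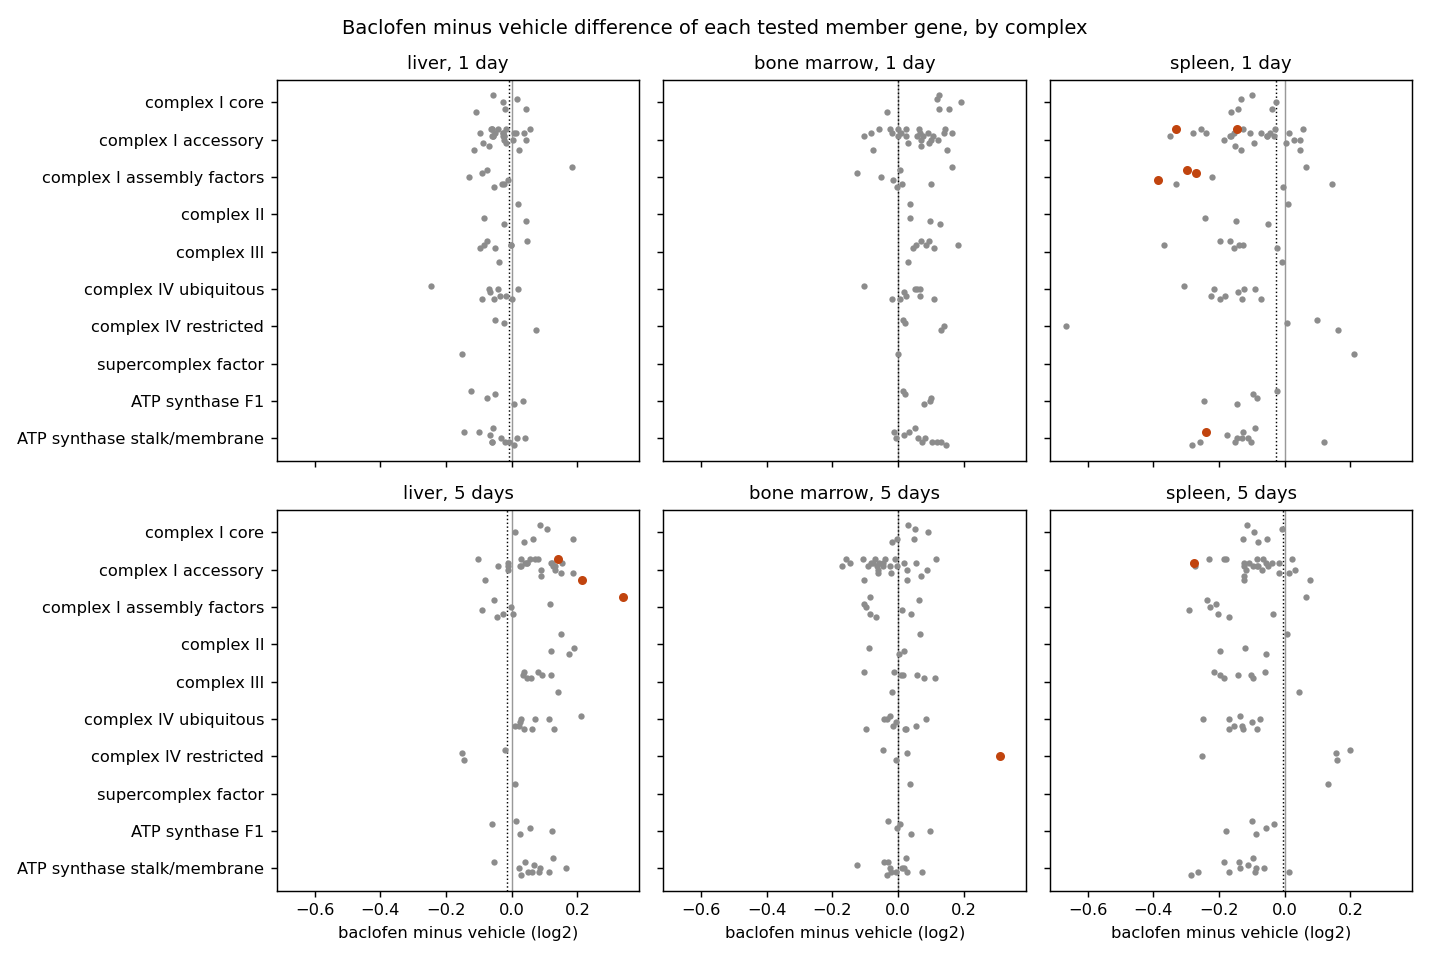
Each point is 1 tested member gene, placed by its baclofen minus vehicle difference (log2, horizontal axis) and grouped by complex (vertical axis), for each tissue and day. Orange points passed limma's test (adjusted p under 0.05), the solid line marks 0 and the dotted line the median of all 10916 genes tested, and most points lie right of 0 in liver at 5 days and in bone marrow at 1 day, and left of 0 in spleen.

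In liver after 5 doses, 3 members rose and 0 fell, and most of the others were slightly higher. Ndufaf6, which encodes an assembly factor of complex I, rose by 0.34 ± 0.09 (log2, SE), and the accessory subunit genes Ndufc2 and Ndufb2 rose by 0.21 ± 0.07 and 0.14 ± 0.04. The 3 genes are 3.57% of the 84 members tested, while 4.86% of all genes tested rose and 5.75% fell, so the share that rose lies near the background. A difference above 0 was seen for 68 of 84 members, against 45.9% of all genes, whose median was -0.02.

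Ndufaf6 ranged from 8.55 to 8.99 with a median of 8.64 (log2 intensity) in the 8 baclofen livers at 5 days, against 8.40, 8.37, 8.10 and 8.51 in the 4 vehicle livers. Every baclofen liver lay above every vehicle liver (adjusted p = 0.018). Ndufb2 ranged from 10.95 to 11.09 with a median of 11.01 in baclofen livers, against 10.85, 10.86, 10.88 and 10.91 in vehicle livers. These groups too did not overlap (adjusted p = 0.0401), as was the case for 2.59% of all genes in this direction. Ndufc2 ranged from 11.69 to 11.81 with a median of 11.75 in baclofen livers, against 11.72, 11.58, 11.23 and 11.61 in vehicle livers. Here the groups overlapped, and the vehicle liver of replicate 3 stood well below the other 3 (adjusted p = 0.0406). Without that library 0 members were called, when 2.34% of all genes rose and 3.01% fell, Ndufaf6 having an adjusted p of 0.0987. The calls of Ndufb2 and Ndufc2 were each lost in 9 of the 19 fits that left out 1 liver array. Without the vehicle 5 day liver of replicate 4, 17 members rose, when 6.78% of all genes rose and 7.37% fell.

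**Figure D2:**
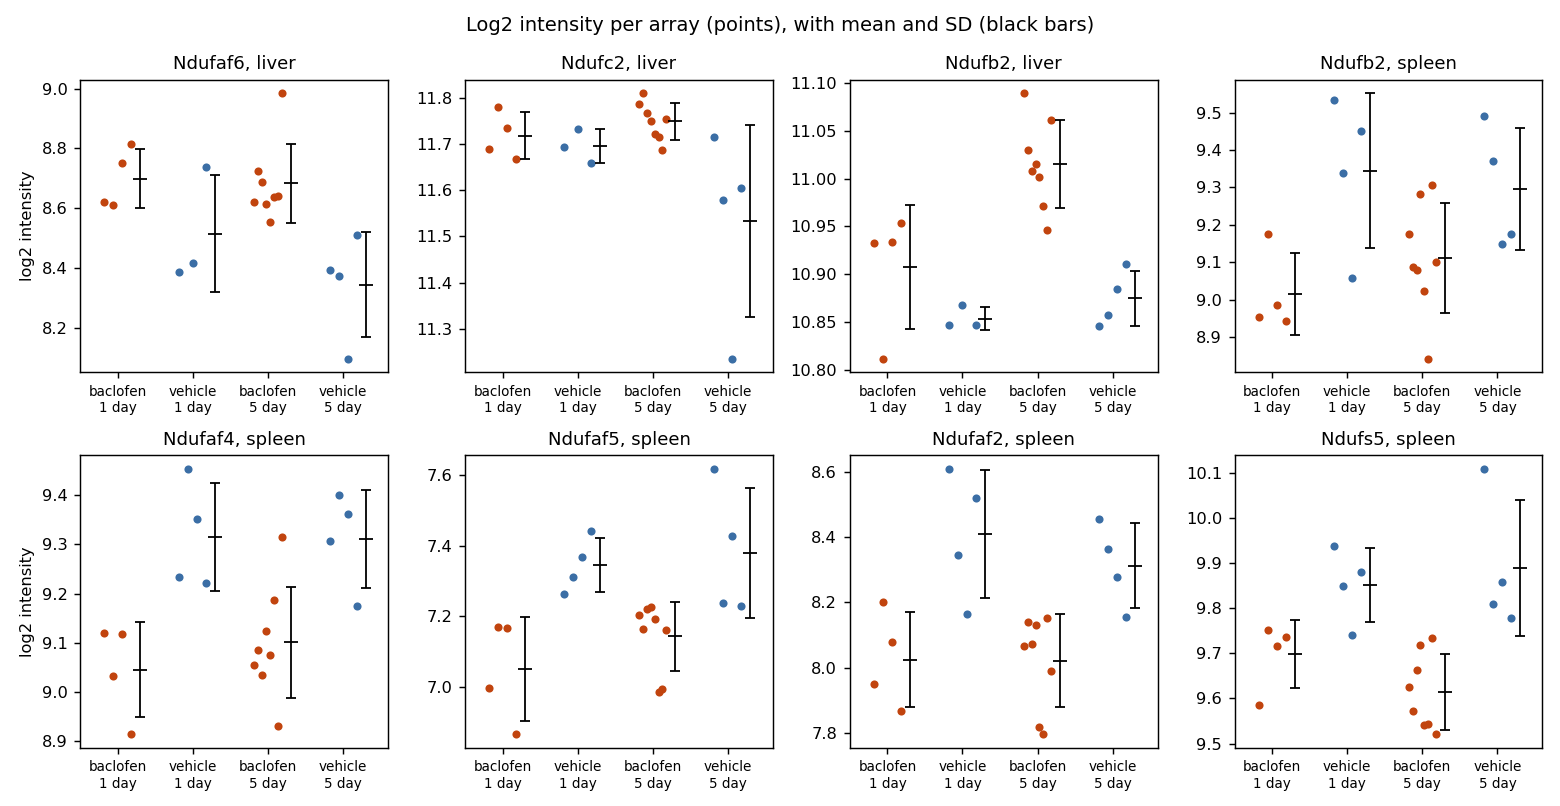
Log2 intensity (vertical axis) of 7 member genes on each array of the 4 groups of a tissue (horizontal axis), with the mean and SD in black; orange points are baclofen and blue points vehicle arrays. In liver at 5 days the baclofen points of Ndufaf6 and Ndufb2 all lie above the vehicle points. In spleen the baclofen points of Ndufaf4 and Ndufaf5 at 1 day and of Ndufaf2, Ndufaf5 and Ndufs5 at 5 days all lie below the vehicle points.

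By complex, the 4 genes of complex II had the highest median of the 5-day liver differences, 0.16, and 0 of them passed the test. Complex II is succinate dehydrogenase, which feeds electrons from the citric acid cycle into the chain. Sdhd, for a membrane anchor, differed by 0.19 ± 0.07 (adjusted p = 0.0695), Sdhb, for the iron-sulfur subunit, by 0.17 ± 0.06 (adjusted p = 0.0722), Sdha, for the flavoprotein, by 0.15 ± 0.06 and Sdhc, for the other anchor, by 0.12 ± 0.05. Sdhd ranged from 11.40 to 11.61 with a median of 11.48 in baclofen livers, against 11.42, 11.12, 11.27 and 11.42 in vehicle livers. The mean of the 4 genes ranged from 11.78 to 11.88 in the 8 baclofen livers and from 11.59 to 11.79 in the 4 vehicle livers, which overlap by a single vehicle array. The complex was singled out by these same differences, so the narrow overlap adds no separate support. All 8 tested genes of complex III (median 0.07), 10 of 10 for the common subunits of complex IV (0.05), 6 of 6 for the complex I core (0.08) and 15 of 17 for ATP synthase had differences above 0, with 0 past the test. The 3 tested tissue-restricted isoforms of complex IV were below 0, Cox6a2, the heart and muscle isoform of subunit 6a, by -0.15 ± 0.06 (adjusted p = 0.132).

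After a single dose no liver member passed limma's test, when 1.58% of all genes rose and 1.09% fell, and 0 of 84 had an unadjusted p under 0.05, when 6.27% of all genes were higher and 6.22% lower at that level. The median difference was -0.03, and 20 of 84 members were above 0, against 47.1% of all genes. With the 1-day livers grouped by their source field the median was 0.02, so its sign rests on which label is followed. Cox7c, for a small complex IV subunit, differed most (-0.25), and Ndufaf6 was 0.18 ± 0.11 (adjusted p = 0.552). Ndufaf6 measured 8.62, 8.61, 8.75 and 8.81 in the baclofen livers, against 8.39, 8.42 and 8.74 in the vehicle livers. The baclofen values at 1 day lie in the range of those at 5 days, and 1 vehicle array reached them.

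Ppargc1a, which encodes a coactivator known to raise the transcription of respiratory genes, rose in liver on both days. It measured 8.81, 9.61, 9.63 and 10.003 in baclofen livers at 1 day, against 7.66, 8.23 and 7.95 in vehicle livers (1.57 ± 0.24, adjusted p = 0.000728). At 5 days it ranged from 8.57 to 9.56 in baclofen livers, against 7.15 to 7.57 in vehicle livers (1.71 ± 0.19, adjusted p = 2.64e-05). Its groups were thus several times farther apart than those of any tested member, on both days. Over all genes tested in liver, 1.58% rose and 1.09% fell at 1 day, and 4.86% rose and 5.75% fell at 5 days. Of the 17 tested regulators of mitochondrial biogenesis, 1 rose and 1 fell at 1 day, and 2 rose and 1 fell at 5 days. The second that rose at 5 days was Sirt1, for a deacetylase that acts on this coactivator (0.66 ± 0.13, adjusted p = 0.00289), and the one that fell on both days was Twnk, for the mitochondrial DNA helicase (-0.27 and -0.17). Among 30 tested assembly factors outside the name rule, Tmem126b, for complex I assembly, fell at 1 day (-0.47 ± 0.11), and Sco2 (-0.44 ± 0.08) and Cox19 (-0.20 ± 0.06), for complex IV assembly, fell at 5 days. The 16 tested genes of the citric acid cycle were above 0 in 16 cases at 1 day and 14 at 5 days (medians 0.08 and 0.12), with 0 past the test. Of all genes 47.1% and 45.9% were above 0. The 1-day values here follow the titles and treatment field, and those by the source field are not given. The 6 macrophage markers were below 0 in liver on both days, 1 of them past the test at 5 days, and their mean ranged from 7.87 to 8.36 in baclofen livers and from 8.32 to 8.73 in vehicle livers at 5 days. Of 2 tested neutrophil markers and 2 of granulocyte precursors, 1 each fell at 5 days, and the neutrophil mean ranged from 4.84 to 5.59 in baclofen livers and from 5.17 to 5.82 in vehicle livers. In whole tissue, fewer cells of a type and less RNA per cell cannot be told apart, and the part of these cells in the members' differences was not tested.

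In spleen after 1 dose, 6 members fell and 0 rose. They were Ndufaf2 (-0.39 ± 0.11), Ndufaf5 (-0.30 ± 0.09) and Ndufaf4 (-0.27 ± 0.08), for complex I assembly factors, the complex I accessory genes Ndufb2 (-0.33 ± 0.11) and Ndufa3 (-0.15 ± 0.05), and Atp5j2 (-0.24 ± 0.08), for subunit f of ATP synthase. They are 7.06% of the 85 members tested, while 7.91% of all genes fell and 7.64% rose, so again the share is near the background. With each of the 179 member probe sets tested apart, 9 fell and 2 rose. Of all 34945 probe sets with 1 symbol, 1343 fell and 1506 rose. The differences as a whole lay lower: 14 of 85 members were above 0, against 45.4% of all genes, and their median was -0.13, when that of all genes was -0.03.

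Ndufaf4 measured 9.12, 9.03, 9.12 and 8.91 in baclofen spleens at 1 day, against 9.23, 9.45, 9.35 and 9.22 in vehicle spleens (adjusted p = 0.0261). Ndufaf5 measured 7.00, 7.17, 7.17 and 6.86 in baclofen spleens, against 7.26, 7.31, 7.37 and 7.44 in vehicle spleens (adjusted p = 0.0305). For both genes the groups did not overlap, as for 10 members in this direction and 8.9% of all genes. Ndufaf2 measured 7.95, 8.20, 8.08 and 7.87 in baclofen spleens, against 8.61, 8.35, 8.17 and 8.52 in vehicle spleens (adjusted p = 0.0195). The vehicle spleen of replicate 3 lay inside the range of the baclofen spleens. Ndufb2 showed the same order, with 8.95, 9.18, 8.99 and 8.94 in baclofen spleens, against 9.53, 9.34, 9.06 and 9.45 in vehicle spleens (adjusted p = 0.0448). Atp5j2 measured 11.94, 12.12, 11.98 and 11.99 in baclofen spleens, against 12.38, 12.24, 12.12 and 12.26 in vehicle spleens (adjusted p = 0.0463). Ndufa3, with the smallest change, measured 11.55, 11.66, 11.58 and 11.55 in baclofen spleens, against 11.71, 11.75, 11.77 and 11.69 in vehicle spleens (adjusted p = 0.0493).

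These calls depended on single arrays. Without the vehicle 1 day spleen of replicate 3, 26 members were called, when 14.8% of all genes fell and 13.1% rose. Without the baclofen 1 day spleen of replicate 4, 0 were called, when 3.75% fell and 5.42% rose. Ndufaf2, Ndufaf4 and Ndufaf5 kept their calls in 16, 17 and 16 of the 20 fits that left out 1 spleen array, while Ndufa3 kept its call in 3, Atp5j2 in 7 and Ndufb2 in 10. With arrays weighted by their estimated quality 38 members were called (44.7%), when 33.4% of all genes were.

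The other complexes were below 0 together. All 10 common subunits of complex IV (median -0.16), all 8 of complex III (-0.15), all 6 of the complex I core (-0.12) and all 5 of ATP synthase F1 (-0.10) had differences below 0, with 0 past the test. Nearest to the threshold was Ndufa4, for a complex IV subunit first assigned to complex I, at -0.20 ± 0.07 (adjusted p = 0.0521). Cox7c followed at -0.31 ± 0.11 (adjusted p = 0.0658), and Atp5b, for the catalytic beta subunit, differed by -0.25 ± 0.09 (adjusted p = 0.0782). The largest difference above 0 was that of Cox7a2l, the supercomplex factor (0.21 ± 0.08, adjusted p = 0.0768). Within isoform families the signs differed. Cox6a2 was above 0 (0.16 ± 0.10) and its common partner Cox6a1 below (-0.22 ± 0.08), and of the 3 genes for subunit c of ATP synthase, Atp5g2 was above 0 (0.12 ± 0.07), while Atp5g1 (-0.28 ± 0.12) and Atp5g3 (-0.11 ± 0.07) were below, none past the test.

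Related genes outside the name rule changed in both directions in spleen at 1 day, when 7.91% of all genes fell, 7.64% rose and 45.4% were above 0. Cyc1 (-0.26 ± 0.08), for cytochrome c1 of complex III, Cycs (-0.33 ± 0.11), for cytochrome c, and Vdac3 (-0.32 ± 0.10), for an outer membrane channel, fell among 11 tested carriers and subunits outside the rule. Of 28 tested assembly factors outside the rule, 4 fell, among them Uqcc2 (-0.31 ± 0.08), for complex III assembly, and 2 rose. The 2 were Sdhaf1, for complex II assembly, by 1.01 ± 0.13 (adjusted p = 0.000193), and Atpaf1, for ATP synthase assembly, by 0.47 ± 0.09 (adjusted p = 0.00282). Fh1, for fumarate hydratase, fell by 0.32 on the log2 scale among 16 genes of the citric acid cycle, 14 of them below 0. ND5, the single mitochondrially encoded subunit gene with a tested probe set, rose by 0.35 ± 0.10 (adjusted p = 0.0254).

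At 5 days 1 member fell in spleen, Ndufs5, an accessory subunit of complex I, and 0 rose. Of all genes tested 1.38% fell and 3.05% rose, and 1 of 85 members is 1.18%. Ndufs5 ranged from 9.52 to 9.73 with a median of 9.60 in the 8 baclofen spleens, against 10.11, 9.81, 9.86 and 9.78 in the 4 vehicle spleens. The groups did not overlap, as for 4 of 85 members (Ndufs5, Ndufaf2, Ndufaf3 and Ndufaf5) and 1.61% of all genes in this direction. The fitted difference of Ndufs5 was -0.27 ± 0.06 (adjusted p = 0.0203). Its highest value was in the vehicle spleen of replicate 1, 1 of the libraries with hepatocyte transcripts, and without that array the adjusted p was 0.072. The 4 libraries include the vehicle spleens of replicates 1 and 3 at 5 days, so the fit without them rests on fewer vehicle arrays. Without the 4 libraries 0 members were called by limma, when 0.376% of all genes fell and 1.21% rose. The median member difference was then -0.05, when that of all genes was 0.04. With all libraries the median was -0.10, 12 of 85 members were above 0, against 49.3% of all genes, and the median of all genes was close to 0. Ndufaf2 (-0.29 ± 0.09, adjusted p = 0.0708), Ndufaf4 (-0.21 ± 0.07, adjusted p = 0.0773) and Ndufaf5 (-0.24 ± 0.08, adjusted p = 0.08) did not pass at 5 days. Sdhaf1 rose again (0.54 ± 0.11, adjusted p = 0.0103) and Cycs fell again (-0.36 ± 0.10, adjusted p = 0.0418).

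Some markers of blood cell types also differed between baclofen and vehicle spleens at 1 day. Over all genes tested, 7.91% fell and 7.64% rose at that time, and 45.4% were above 0. At 1 day the mean of 9 neutrophil genes ranged from 9.19 to 9.51 in baclofen spleens and from 9.44 to 11.10 in vehicle spleens, and 2 of 9 tested genes fell. The mean of 5 granulocyte precursor genes ranged from 7.24 to 8.32 in baclofen spleens and from 8.03 to 9.79 in vehicle spleens, and 3 of 5 fell. The mean of 9 erythroid genes ranged from 9.84 to 10.32 in baclofen spleens and from 9.41 to 11.24 in vehicle spleens, and 0 of 8 tested genes passed, all 8 being below 0. The B cell mean ranged from 11.23 to 11.37 in baclofen spleens and from 10.44 to 11.44 in vehicle spleens, and 1 of 5 tested B cell genes, Cd79a, for a chain of the B cell receptor complex, rose (0.48 ± 0.16, adjusted p = 0.0486). The T cell mean ranged from 9.48 to 9.88 in baclofen spleens and from 8.89 to 9.83 in vehicle spleens, and 0 of 5 tested genes passed, all 5 being above 0. The vehicle spleen of replicate 3, without which 26 members were called, had the lowest value of its group in the neutrophil, granulocyte precursor and erythroid lists. At 5 days the erythroid mean ranged from 8.05 to 10.53 in baclofen spleens and from 8.94 to 11.11 in vehicle spleens, with 0 of the 8 genes past the test. The mean of the 85 tested members ranged from 10.45 to 10.59 in baclofen spleens and from 10.51 to 10.70 in vehicle spleens at 1 day, and at 5 days from 10.40 to 10.60 in baclofen and from 10.49 to 10.73 in vehicle spleens. The part of these cell types in the members' differences was not tested.

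In bone marrow 1 member passed, Cox6b2 at 5 days, which rose by 0.31 ± 0.06 (adjusted p = 0.00833). Cox6b2 encodes an isoform of complex IV subunit 6b that is known from testis. At 5 days 6.15% of all genes rose and 3.93% fell, and 1 of 85 members is 1.18%. Cox6b2 ranged from 9.65 to 9.99 with a median of 9.86 in the 8 baclofen marrows, against 9.64, 9.45, 9.51 and 9.52 in the 4 vehicle marrows. The groups did not overlap, as for 3.53% of all genes in this direction, though their nearest arrays were almost equal. At 1 day it measured 9.81, 9.66, 9.67 and 9.85 in baclofen marrows, against 9.46, 9.64, 9.66 and 9.66 in vehicle marrows, a difference of 0.14 ± 0.07 (adjusted p = 0.251). The 5-day call held without any single marrow array, with adjusted p from 0.00325 to 0.0322. The common isoform Cox6b1 differed by -0.01 ± 0.04 at 5 days, with a 95% interval from -0.09 to 0.08. The interval of Cox6b2 ran from 0.18 to 0.44.

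Cox6b2 lay below the filter in liver and above it in bone marrow and spleen, each on its own scale, since the tissues appear to have been normalized apart. It ranged between 9.45 and 9.99 in marrow and between 7.59 and 9.66 in spleen. In spleen its highest and lowest arrays were those of the erythroid markers. The 5 spleens with Cox6b2 at 9.04 or more were the 5 with the highest erythroid mean, at 10.53 or more, while no other spleen exceeded 8.76 for Cox6b2 or 10.45 for the markers. They were 3 vehicle spleens at 1 day, and a baclofen and a vehicle spleen at 5 days. Of the 8 spleens with the highest Cox6b2, 6 were among the 8 with the highest erythroid mean. The 2 lowest Cox6b2 values, 7.59 and 7.61, came from baclofen 5 day replicates 6 and 8, which had the lowest erythroid means, 8.68 and 8.05. In bone marrow 7 of the 8 arrays with the highest Cox6b2 were among the 8 with the highest erythroid mean. Every array in both sets of 8 was a baclofen array, so this overlap cannot be told apart from the shared treatment. Among 5-day vehicle marrows, replicate 1 had the highest Cox6b2 (9.64) and the lowest erythroid mean (10.84). Among 5-day baclofen marrows, replicate 4 was lowest in both (9.65 and 11.33). Over all marrow arrays, of the 5 highest 4 were shared, and of the 5 lowest 2. In that tissue 7 of 8 tested erythroid genes rose at 5 days, when 6.15% of all genes did. Among them were Epor, for the erythropoietin receptor (0.53 ± 0.10, adjusted p = 0.00519), and Fech, for the last enzyme of heme synthesis (0.48 ± 0.10, adjusted p = 0.00981). The erythroid mean ranged from 11.33 to 11.64 in baclofen marrows and from 10.84 to 11.29 in vehicle marrows. In spleen Cox6b2 differed by -0.66 ± 0.33 at 1 day (adjusted p = 0.168) and by -0.25 ± 0.28 at 5 days (adjusted p = 0.586), neither past the test, with intervals from -1.35 to 0.02 and from -0.84 to 0.34. Of the granulocyte precursor markers 1 of 5 fell in bone marrow at 5 days, with means from 12.78 to 13.45 in baclofen marrows and from 13.04 to 13.63 in vehicle marrows, and 1 of 9 neutrophil markers fell. The part of these cells in the rise of Cox6b2 in bone marrow was not tested.

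**Figure D3:**
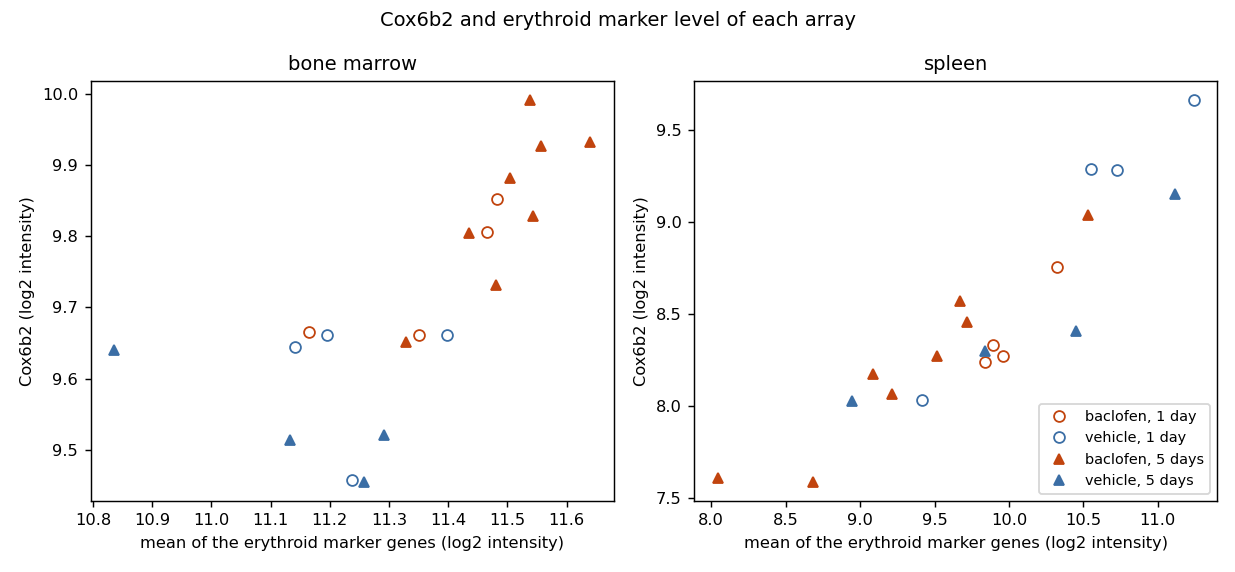
Cox6b2 (vertical axis, log2 intensity) against the mean of 9 erythroid marker genes (horizontal axis, log2 intensity), 1 point per array, in bone marrow and spleen; orange marks baclofen and blue vehicle, open circles 1 day and filled triangles 5 days. In spleen Cox6b2 runs from 7.59 to 9.66 and the 5 highest arrays on both axes are the same. In bone marrow most baclofen arrays at 5 days lie upper right, as do baclofen replicates 1 and 4 at 1 day. Baclofen replicate 4 at 5 days lies lower, with Cox6b2 at 9.65 and an erythroid mean of 11.33.

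At 1 day no bone marrow member passed limma's test, when 3.11% of all genes rose and 4.25% fell, and 6 of 85 members were higher and 0 lower at an unadjusted p under 0.05, when 10.6% and 13.5% of all genes were. Without the library with muscle transcripts the count was 0 as well. With each of the 179 member probe sets tested apart, 0 rose and 1 fell, when 520 rose and 585 fell of all 34945. Yet with all libraries 69 of 85 members were above 0, against 50.3% of all genes. The member median was 0.06, when the median of all genes was close to 0. Without single arrays the member median ran from 0.03 to 0.09. In 9 members every baclofen marrow lay above every vehicle marrow, as for 5.57% of all genes. Among them were Ndufs8, for a core iron-sulfur subunit of complex I, with 12.05, 12.03, 11.98 and 12.003 in baclofen marrows, against 11.87, 11.86, 11.96 and 11.87 in vehicle marrows. Its difference was 0.12 ± 0.05 (adjusted p = 0.121). Uqcrfs1, for the Rieske protein of complex III, measured 11.46, 11.38, 11.37 and 11.43 in baclofen marrows, against 11.05, 11.32, 11.20 and 11.35 in vehicle marrows (0.18 ± 0.07, adjusted p = 0.11). At 5 days the median was -0.01 and 37 of 85 members were above 0, against 49.3% of all genes. Genes outside the name rule that rose at 1 day were Ucp3, for an uncoupling protein (0.46 ± 0.09, adjusted p = 0.00632), Sdhaf1 (0.33 ± 0.08, adjusted p = 0.0147) and Cox15, for the heme of complex IV (0.22 ± 0.06, adjusted p = 0.0379). The baclofen group here includes the library with muscle transcripts, and values of these genes without it are not given. The part of muscle transcripts in these rises was not tested. At 5 days Nrf1, for the regulator named above, rose by 0.20 ± 0.05 (adjusted p = 0.0175).

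The muscle isoforms of complex IV marked the bone marrow library with skeletal muscle transcripts. Cox7a1, Cox6a2 and Cox8b replace Cox7a2, Cox6a1 and Cox8a in striated muscle. In baclofen 1 day replicate 3, Cox7a1 measured 6.86, against 4.76 to 5.67 in the other 19 marrows, Cox8b measured 7.46, against 5.70 to 6.57, and Cox6a2 measured 8.72, against 7.59 to 8.31. For all 3 genes this array was the highest of the tissue, in step with its skeletal muscle mean of 9.67. Of the 3 only Cox6a2 was bright enough to be tested, and it differed by 0.13 ± 0.14 at 1 day (adjusted p = 0.615) and by -0.01 ± 0.12 at 5 days. Its partner Cox6a1 differed by 0.02 ± 0.05 at 1 day. Ndufa4l2, a paralog of the complex IV subunit gene Ndufa4, did not pass in any tissue, with differences between -0.15 and 0.16.

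**Figure D4:**
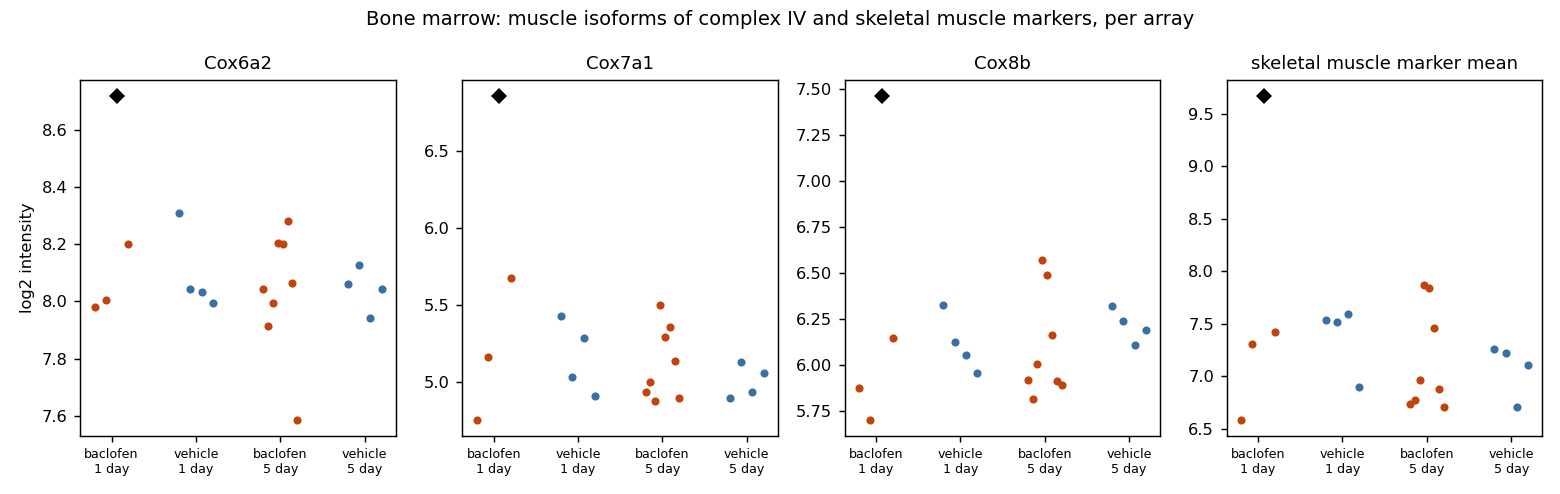
Log2 intensity (vertical axis) of Cox6a2, Cox7a1 and Cox8b and the mean of 14 skeletal muscle marker genes on each bone marrow array of the 4 groups (horizontal axis); orange is baclofen, blue is vehicle, and the black diamond is baclofen 1 day replicate 3. The diamond is the highest point in all 4 panels.

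No member passed a test of change with time. For the difference between the 5-day and the 1-day effect of baclofen, limma called 0 of 84 members in liver, where 0.0183% of all genes were called, and 0 of 85 in bone marrow and spleen, where 0% were. At an unadjusted p under 0.05, 7 members were higher and 1 lower in liver, where 4.1% and 5.51% of all genes were. The counts were 0 and 0 in bone marrow (all genes 3.32% and 1.8%) and 0 and 1 in spleen (all genes 4.99% and 2.87%). The median change was 0.10 in liver, with 75 of 84 members above 0 against 49.1% of all genes, and -0.07 in bone marrow, with 13 of 85 above 0 against 51.7%. Between vehicle groups, 5 days minus 1 day, 0 members and 0% of all genes were called in each tissue by limma. At an unadjusted p under 0.05, 0 members were higher and 2 lower in liver (all genes 3.66% and 3.47%), 7 and 0 in bone marrow (2.45% and 2.23%), and 0 and 0 in spleen (1.36% and 2.11%). Their medians were -0.02, 0.05 and -0.02. A call on 1 day and not on the other, as for the genes above, thus does not show that the days differed.

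Of the tissue comparisons with all arrays, that of liver and spleen at 5 days called the most members, though bone marrow and spleen at 1 day gave more under some of the alternatives given below. At 5 days the baclofen effect was higher in liver than in spleen for 17 of 84 members (20.2%) and lower for 0, when 5.99% of all 9336 genes tested were higher and 5.68% lower. The 17 included Ndufa4 (0.30 ± 0.07, adjusted p = 0.00357), Atp5pb, for the peripheral stalk of ATP synthase (0.30 ± 0.07, adjusted p = 0.00486), Ndufs5 (0.31 ± 0.08, adjusted p = 0.00727), Atp5h, for another stalk subunit (0.21 ± 0.06, adjusted p = 0.0145), and Ndufab1, for the mitochondrial acyl carrier protein in complex I (0.41 ± 0.12, adjusted p = 0.0185). By complex they were 6 of 12 genes of the ATP synthase stalk and membrane, 4 of 27 accessory and 1 of 6 core genes of complex I, 2 of 8 of complex III, 2 of 10 common subunits of complex IV, 1 of 4 of complex II and 1 of 5 of F1. The median difference between the tissues was 0.18, and 78 of 84 were above 0, against 48.6% of all genes.

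Ndufa4 shows the size of such a difference. In liver it differed by 0.13 ± 0.05 (adjusted p = 0.12) and in spleen by -0.17 ± 0.06 (adjusted p = 0.0921), so that neither passed within its tissue. In spleen it ranged from 10.61 to 10.85 in the 8 baclofen arrays, against 10.99, 10.98, 10.84 and 10.82 in the 4 vehicle arrays. The count of 17 depended on the 4 libraries with transcripts of another tissue. Without them 4 members were higher (Ndufa4, Atp5pb, Atp5h and Atp5b) and 1, Ndufa4l2, was lower, when 5.56% of all genes were higher and 6.37% lower, so the share was then near the background. That fit rests on fewer vehicle spleens at 5 days, since replicates 1 and 3 are left out, and the part of this in the lower count was not tested. The differences of the genes named above were then 0.29 for Ndufa4, 0.28 for Atp5pb, 0.21 for Ndufs5, 0.25 for Atp5h and 0.34 for Ndufab1. Leaving out single arrays gave from 6 to 28 members, while the share of all genes called moved between 6.41% and 14.8%. The lowest counts came without the liver vehicle 5 day replicate 3, with 6 members and 7.19% of all genes, the spleen vehicle 5 day replicate 2, with 6 and 6.41%, and the spleen vehicle 5 day replicate 1, with 7 and 11.5%. The highest came without the liver vehicle 5 day replicate 4, with 28 and 13.2%, the spleen baclofen 5 day replicate 7, with 28 and 14.8%, and the spleen vehicle 5 day replicate 4, with 27 and 12.2%. In all of these fits, and without the 4 libraries, Ndufa4 and Atp5pb kept their calls.

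**Figure D5:**
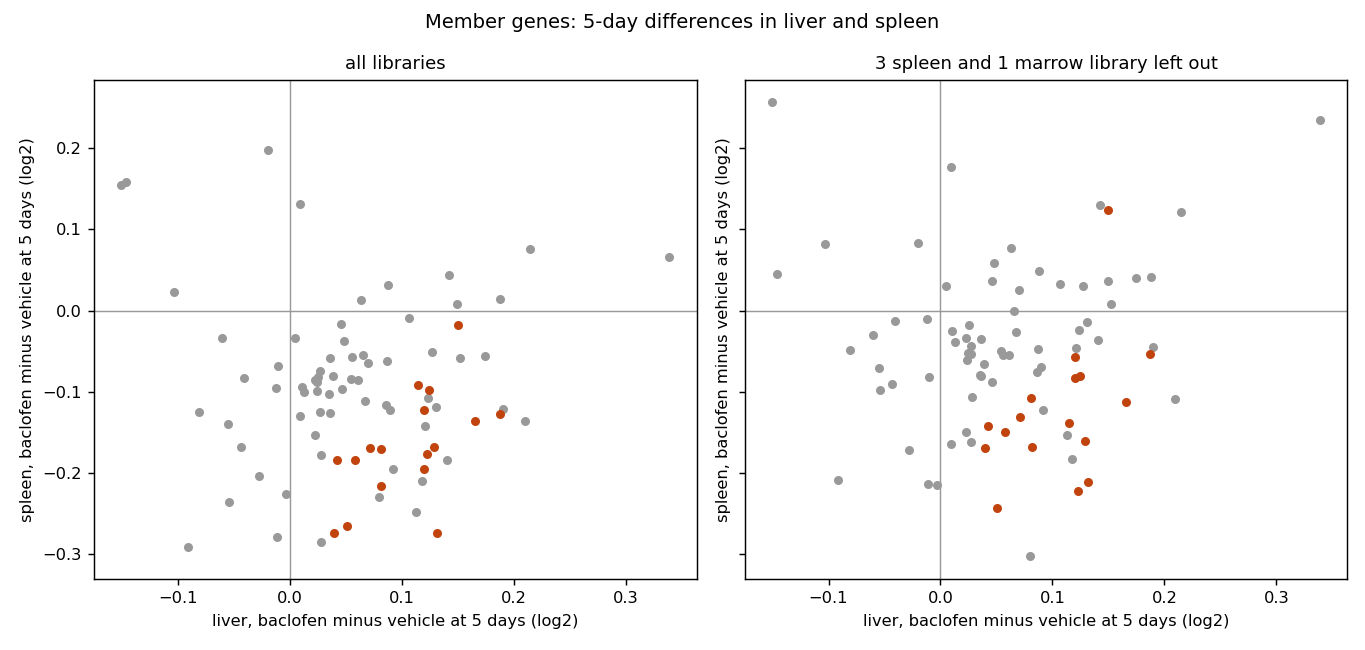
Each point is a member gene tested in both tissues, placed by its baclofen minus vehicle difference at 5 days in liver (horizontal axis, log2) and in spleen (vertical axis, log2), with all libraries at left and without the 4 libraries that hold transcripts of another tissue at right. Orange points are the 17 genes whose effect differed between liver and spleen with all libraries, and they lie right of 0 in liver and, apart from 1 point at right, below 0 in spleen.

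In the other tissue comparisons 0 to 2 members passed with all arrays, and the counts rested on single arrays. At 5 days Ndufaf6 was higher in liver than in bone marrow by 0.43 ± 0.13 (adjusted p = 0.0286), the 1 of 84 members called, against 7.83% of all genes in either direction. At 1 day 0 of 84 members differed between liver and bone marrow by limma, against 2.28% of all genes, and 0 were higher and 4 lower at an unadjusted p under 0.05, when 7.33% and 5.5% of all genes were. Between liver and spleen at 1 day Ndufb2 was higher in liver (0.40 ± 0.13, adjusted p = 0.0448) and Cox7a2l lower (-0.36 ± 0.11, adjusted p = 0.0407), when 6.51% of all genes differed. Leaving out single arrays gave 0 members in 9 of 39 fits and at most 8, without the spleen vehicle 1 day replicate 3, when 13.4% of all genes were called. Ndufb2 lost its call in 12 of these fits and Cox7a2l in 10. Between bone marrow and spleen, Ndufa4 (0.30 ± 0.08, adjusted p = 0.0381) and Ndufa9 (0.38 ± 0.11, adjusted p = 0.0473), an accessory subunit of complex I, were higher in bone marrow at 1 day, when 1.91% of all genes differed. Here 10 of 40 fits without single arrays gave 0 members, and the fit without the spleen vehicle 1 day replicate 3 gave 36, when 16.8% of all genes were called. Ndufa9 lost its call in 22 of the 40 and Ndufa4 in 10. The count was 7 without the 4 libraries, against 3.71% of all genes, and 27 of 85 (31.8%) with array weights, against 14.3%. At 5 days Atp5o, for a stalk subunit (0.34 ± 0.10, adjusted p = 0.0349), and Uqcrh, for the hinge protein of complex III (0.21 ± 0.06, adjusted p = 0.0444), were higher in bone marrow, when 4.48% of all genes differed, and 0 members were without the 4 libraries, when 11.3% of all genes were. Atp5o lost its call in 9 and Uqcrh in 14 of the 40 fits without single arrays. The liver and the bone marrow comparisons use the same spleen arrays and are not independent of each other.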

How the data were processed

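RNA of 59 tissue samples was hybridised to 1-colour Affymetrix mouse arrays. The deposited values are linear probe set intensities, which per the submitters' processing notes were made with RMA, a method that corrects background, normalizes arrays and combines the probes of a set; limma is named there too, and no versions are given in the sources used here. RMA pulls arrays toward one distribution, so a shift shared by most genes would not be seen.

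For the values given here, log2 of the intensities was taken in R 4.3.3, and each tissue was fitted apart with limma 3.58.1 (lmFit and eBayes) over its 4 groups, with 1 probe set per gene, that of the highest mean. Genes below the 40th percentile of mean brightness in a tissue were left out, which left 10916 of 18193 genes in each. The filter stood at an intensity of 42.9 (liver), 83.6 (bone marrow) and 79.5 (spleen). Tests were 2-sided, with Benjamini-Hochberg adjustment over all genes tested and a threshold of 0.05 on the adjusted p; every adjusted p in the text is from limma. Differences between tissues were contrasts of the baclofen effects in 1 fit of all 12 groups, over genes past the filter in both tissues.

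Of 45101 probe sets 34945 had 1 symbol, 932 several and 9160 none, 64 others were controls, and 10 with several symbols that named a member were left out. All 90 members matched RefSeq symbols. Of the members 51 had several probe sets. Groups follow the titles and treatment field. The labels do not say whether samples came from separate mice, so p-values measure the spread between these samples, which may be technical. In simulated data for the same 10916 genes, changes of 0.5 (log2) were recovered for 62% of the changed genes in liver at 1 day and 73% at 5 days, for 83% and 89% in marrow, and for 64% and 71% in spleen. The simulated spread was independent between genes, without deviations shared by the genes of an array. The size of 0.5 exceeds the differences of the called members, so recovery of differences as small as theirs was not measured.

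The members, lists and tests were chosen with earlier results of these data known. Named are up to 8 members in each direction per comparison with the smallest adjusted p, up to 2 per complex, the isoform pairs, up to 5 members in each direction for tissue differences, and up to 3 genes per other list; single members beyond this rule, such as those with groups that do not overlap, were chosen after their values were seen. Alternatives covered the filter, the choice of probe sets, the normalization, the variance model, the samples fitted, array weights, an RNA quality covariate, the replicate number as a block, the labels of the 1-day livers, and leaving out 4 libraries together or each array in turn.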

Additional observations from a re-analysis of the deposited data

Results flagged for a closer look

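Among 68 groups of member values checked, 4 held an array far from the rest of its group, when chance gives about 1 in 20, or 3.4. Ndufaf6 measured 8.99 in the baclofen liver of replicate 8 at 5 days, against 8.55 to 8.73 in the other 7. Ndufb2 measured 10.81 in the baclofen liver of replicate 2 at 1 day, while the other 3 lay between 10.93 and 10.95. For marrow, the vehicle array of replicate 1 at 1 day stood apart for both Cox6b2, at 9.46 against 9.64 to 9.66, and Cox6a2, at 8.31 against 8.00 to 8.04.

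The baclofen effect differed between tissues, by limma's test of the difference, in 24 cases. Between liver and spleen at 5 days the difference was above 0 for Ndufa4 (0.30), Atp5pb (0.30), Ndufs5 (0.31), Atp5h (0.21), Ndufab1 (0.41), Sdhc (0.32), Ndufa12 (0.24), Cox7a2 (0.24), Ndufb5 (0.27), Atp5j2 (0.23), Atp5o (0.32), Atp5l (0.22), Atp5b (0.30), Uqcrq (0.30), Ndufs1 (0.32), Atp5md (0.25) and Uqcr10 (0.24). Of all genes 5.99% were higher and 5.68% lower, and without the 4 libraries only Ndufa4, Atp5pb, Atp5h and Atp5b of these genes kept their calls. At 1 day the difference between liver and spleen was above 0 for Ndufb2 (0.40) and below 0 for Cox7a2l (-0.36), when 6.51% of all genes differed. Between liver and bone marrow at 5 days Ndufaf6 differed by 0.43, when 7.83% of all genes differed. Between bone marrow and spleen Ndufa4 (0.30) and Ndufa9 (0.38) differed at 1 day, when 1.91% of all genes did. Atp5o (0.34) and Uqcrh (0.21) differed at 5 days, when 4.48% did.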

How the results depend on the processing

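No member called in a comparison changed sign there in any alternative, but the median over all tested members did where it lay near 0. In bone marrow at 5 days, where it was -0.01, it ran from -0.03 to 0.02 without single arrays. Between vehicle groups it ran from -0.05 to 0.004 in liver and from -0.07 to 0.01 in spleen, and for the change between days in spleen from -0.02 to 0.06. With the source field as label of the 1-day livers it was 0.02 in liver at 1 day and 0.01 between vehicle groups.

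Counts of members called follow, with the share of all genes called under the same setting in parentheses. In liver at 5 days, where 3 were called (10.6%), there was 1 with no filter (5.62%), with only the groups compared (8.02%), with array weights (6.6%) or with the RNA quality covariate (6.77%), 5 with quantile normalization (11.6%) or with eBayes trend and robust options (10.8%), 6 with the filter at the 60th percentile (14.8%), 9 with probe sets averaged per gene (10.8%) and 11 with median centring (11.4%). In spleen at 1 day, where 6 were called (15.5%), there were 3 with no filter (8.31%), 0 with only the groups compared (6.19%) and 38 with array weights (33.4%). In spleen at 5 days, against 1 (4.43%), 2 were called with array weights (6.82%) or the covariate (2.45%) and 0 without the 4 libraries (1.58%). In bone marrow at 5 days, against 1 (10.1%), 21 were called with array weights (40.3%), 3 higher and 18 lower, and 2 with the covariate (7.34%). Between vehicle marrows 5 were called with array weights (4.79%), against 0. Between liver and spleen at 5 days, the 17 (11.7%) became 9 with quantile normalization (13.9%), 5 with only the groups compared (6.82%) or without the 4 libraries (11.9%), and 4 with array weights (8.19%). At 1 day the 2 (6.51%) became 0 with no filter (3.7%) or only the groups compared (2.06%), 1 with the mean of probe sets (6.58%), probe sets apart (5.25%) or quantile normalization (6.74%), and 6 with array weights (12.4%). Between liver and bone marrow at 5 days the 1 (7.83%) became 0 with the 60th percentile filter (9.77%), 2 with quantile normalization (8.87%) or only the groups compared (8.31%), 3 with the mean of probe sets (7.07%) or array weights (10.7%), and 5 with median centring (8.21%). Between bone marrow and spleen at 1 day the 2 (1.91%) became 0 with no filter (0.753%) or only the groups compared (0.0391%), 1 with probe sets apart (1.12%), median centring (2.48%) or the covariate (1.32%), 4 with trend and robust options (1.92%), 5 with the 60th percentile filter (3.16%) or the mean of probe sets (2.07%), 7 without the 4 libraries (3.71%) and 27 with array weights (14.3%). At 5 days the 2 (4.48%) became 0 with no filter (2.17%), the mean of probe sets (5.49%), only the groups compared (2.37%) or without the 4 libraries (11.3%), and 1 with probe sets apart (4.07%), quantile normalization (4.99%), median centring (4.82%) or array weights (9.34%). The cause was not tested, beyond the fewer samples of some fits.

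Leaving out each array in turn gave from 0 to 17 members in liver at 5 days (5.35% to 14.1% of all genes), 1 to 2 in bone marrow at 5 days (2.24% to 15.3%), 0 to 26 in spleen at 1 day (8.69% to 27.9%) and 0 to 4 at 5 days (1.24% to 6.93%). For the tissue differences it gave 0 to 7 between liver and bone marrow at 5 days (5.36% to 9.5%), 0 to 8 and 6 to 28 between liver and spleen at 1 and 5 days (3.61% to 13.4% and 6.41% to 14.8%), and 0 to 36 and 0 to 6 between bone marrow and spleen at 1 and 5 days (0.255% to 16.8% and 0.764% to 11.5%). The other comparisons stayed at 0. Cox6b2 in bone marrow kept its call without any single array, and Ndufa4 and Atp5pb kept theirs in the liver and spleen comparison at 5 days under all alternatives run. When the 1-day livers were labelled by their source field, counts stayed within 1.5 times. Only the groups compared could not give the change between days.

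Same-numbered samples did not deviate together as a rule (r from -0.46 to 0.27 over 23 pairs, 5 of them above 0.1). Correlations of single pairs cannot exclude that the replicate numbers stand for a pairing. With the replicate block the counts were 0 in liver (3.53%), bone marrow (0.275%) and spleen (0.559%) at 5 days, 3 in spleen at 1 day (12.4%), 1 and 2 between liver and spleen at 1 and 5 days (4.75% and 3.79%), and 0 between liver and bone marrow at 5 days (2.71%) and between bone marrow and spleen at 1 and 5 days (0.812% and 0.245%).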
